A study of Schizosaccharomyces pombe with 6 samples.

Results

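The genes described here are 8 genes that control zinc and copper in fission yeast (*Schizosaccharomyces pombe*), out of 6291 genes in the count table of the *nup211-so* strain. They were chosen by name, with earlier results of these data known. The zinc genes are *zrt1*, *zhf1*, *zym1* and *loz1*, and the copper genes are *ctr4*, *ctr5*, *ctr6* and *cuf1*. All 8 were found in the table and all 8 passed the filter on low counts. The study sequenced RNA of 3 cultures of this strain with thiamine and 3 without it, each labelled as a biological replicate. Both groups are of mating type h+ and carry the alleles leu1-32, ade6-M210 and ura4-D18, and in both the insertion nup211::P81nmt1 with the marker ura4+ puts *nup211*, the gene of an essential nuclear pore protein, under P81nmt, a promoter that thiamine represses. The medium was EMM, the synthetic minimal medium used for this yeast, with adenine and leucine. The thiamine cultures had 30 μM (10 μg/mL) thiamine for 24 h, were washed and diluted to an OD600 of 0.05, and grew for another 24 h in fresh thiamine medium. Growth times and dilution of the cultures without thiamine are not stated in the sources used here, so whether they were handled alike is not known. A strain with the native *nup211* promoter was not used here, so an effect of thiamine itself and an effect of shutting off *nup211* cannot be told apart in any value below. In bulk RNA, fewer cells of a kind and less RNA per cell cannot be told apart either.

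Zinc and copper are needed by many enzymes but are toxic in excess, and yeast cells hold their free levels low by adjusting uptake, storage and binding. In fission yeast the zinc-finger protein Loz1 represses zinc uptake genes when zinc is plentiful. The copper-sensing factor Cuf1 activates the copper transporter genes when copper is scarce, and it represses genes of reductive iron uptake under the same condition. Metallothioneins are small cysteine-rich proteins that bind metal ions, and membrane transporters move the ions across the cell surface, the vacuole or the endoplasmic reticulum.

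Library totals lay between 37195197 and 48815139 counts. Ribosomal RNA genes took 46.3%, 28.7% and 24.6% of them in thiamine replicates 1 to 3, against 42.7%, 41.2% and 48.98% in the replicates without thiamine. Levels are given as CPM, counts scaled by TMM (a normalization that centres most genes on no change) to a library of 1e+06 counts, and a fold change is thiamine over no thiamine. *nmt1*, the thiamine biosynthesis gene whose promoter family drives the construct, had 0, 3 and 2 counts in the thiamine libraries, against 1631, 2061 and 1858 counts without thiamine. *nup211* itself averaged 12.3 ± 0.887 CPM with thiamine and 13.8 ± 1.51 CPM without (SD, n = 3 each), and this difference did not pass the test (log2 fold change -0.17, adjusted p = 0.199, edgeR). The marker *ura4* averaged 23.6 ± 2.36 CPM with thiamine and 79.4 ± 5.10 CPM without. By *nmt1* the groups therefore separated by the thiamine label, while a lower *nup211* mRNA level was not detected by TMM. *nup211* was not examined under other scalings. By Western blot the study reported less Nup211 protein in *nup211-so* cells grown with thiamine, a measure of protein that these libraries do not give.

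The zinc and copper genes moved in different directions. With thiamine, the zinc regulator *loz1* was 7.06-fold higher and the metallothionein gene *zym1* 2.90-fold higher, while the zinc uptake gene *zrt1* and the zinc efflux gene *zhf1* did not pass the test. The copper transporter genes *ctr4*, *ctr5* and *ctr6* fell to 0.342, 0.367 and 0.286 of their level without thiamine, and *cuf1*, the gene of their activator, was 1.67-fold higher. In all, 6 of the 8 genes were called at an adjusted p under 0.05 (edgeR quasi-likelihood test, Benjamini-Hochberg adjustment over 5434 genes), 3 higher and 3 lower. Calls were common across the whole table, where 69.8% of genes were called, 34.5% higher and 35.3% lower. The share among the 8 genes, 75.0%, is near that background and is not a result about them. The libraries of the groups did not overlap for 7 of the 8 genes, against 75.5% of all genes tested. The sizes and directions of the single genes are what follows.

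**Figure D1:**
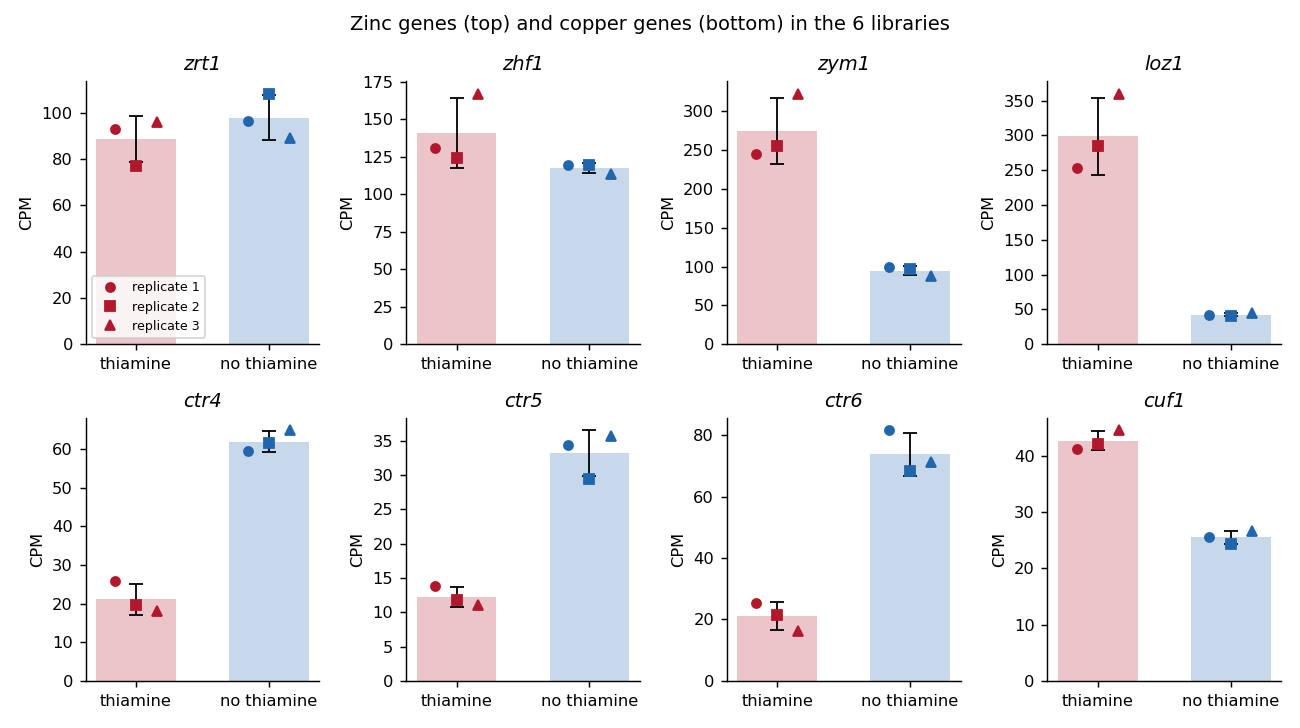
Level of each gene in CPM (vertical axes, starting at 0) in the thiamine libraries (red) and the libraries without thiamine (blue). Bars are group means, error bars the SD of 3 libraries, and symbols the replicates; only *zrt1* has overlapping groups.

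*zrt1* (SPBC16D10.06) encodes the high-affinity zinc uptake transporter of the plasma membrane and is the best-known target of Loz1 repression. In the ASM294v3 assembly it occupies chromosome II, plus strand, 3607177 to 3609330, with no intron annotated. The Loz1 response element (LRE) is the sequence that Loz1 recognises, and its core is GATC. The 1000 bases before the start codon of each coding gene were searched for it on both strands. For *loz1* this window lies within the annotated 5′ UTR (1003 bp in RefSeq, 1018 bp in the deposited table), so nothing upstream of its transcript start was searched. A full match was found in 51 of 5109 genes (0.998%), and *zrt1* was the only one of the 8 genes with a match in its window. The stretch is shown because it holds the only LRE match found in the 8 windows, in capitals, and it lies 907 bases before the start codon and upstream of both annotated transcript starts (RefSeq genome, ASM294v3, plus strand, chrII:3606960-3607159).
*zrt1*: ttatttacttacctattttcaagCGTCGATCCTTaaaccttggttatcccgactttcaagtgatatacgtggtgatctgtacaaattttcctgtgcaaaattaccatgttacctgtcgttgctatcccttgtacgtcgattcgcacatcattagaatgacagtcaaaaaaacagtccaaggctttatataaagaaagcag

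*zrt1* had 92.9, 77.0 and 95.8 CPM in the thiamine libraries, against 96.4, 108 and 88.9 CPM without thiamine. The groups overlapped, and the lowest library was thiamine replicate 2. The means were 88.6 ± 10.12 and 97.8 ± 9.71 CPM (SD, n = 3 each), with a log2 fold change of -0.14 (95% interval -0.39 to 0.11) and an adjusted p of 0.269 in edgeR. The interval bounds the size of a change under TMM, but the direction was not stable: scaling by library totals gave 0.43 and by totals without ribosomal RNA 0.18, neither of which passed, while upper-quartile scaling gave -0.44, which passed (adjusted p = 0.00486, edgeR).

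*zhf1* (SPAC23C11.14) encodes a cation diffusion facilitator that moves zinc into the endoplasmic reticulum and so protects the cell from excess zinc. It lies on chromosome I from 2158307 to 2160086 on the plus strand. Its levels were 131, 124 and 167 CPM in the thiamine libraries, against 119.3, 119.6 and 114 CPM without thiamine. The groups did not overlap, yet thiamine replicate 3 stood above the other libraries and the change did not pass the test (log2 fold change 0.26, 95% interval -0.01 to 0.53, adjusted p = 0.0746, edgeR). With thiamine replicate 2 left out the value was 0.34 and passed (adjusted p = 0.0335, edgeR), and it also passed under library totals (0.86) and totals without ribosomal RNA (0.58). With thiamine replicate 3 left out it was 0.10 and did not pass (adjusted p = 0.114, edgeR), and upper-quartile scaling turned it to -0.04. A non-coding gene on the opposite strand, SPNCRNA.2967, which is not in the count table, covers 1395 of the 1780 bp of *zhf1*. The sources used here do not say whether the counting used strand, so reads of the pair cannot be told apart.

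*zym1* (SPAC22H10.13) encodes the metallothionein of this yeast, which binds zinc. Its coding sequence is 153 bp, within a gene at 2381666 to 2382200 on the plus strand of chromosome I. It had 245, 255 and 323 CPM in the thiamine libraries, against 99.2, 96.8 and 88.3 CPM without thiamine. Every thiamine library lay above every library without thiamine, and thiamine replicate 3 was the highest. The means were 274 ± 42.4 and 94.8 ± 5.73 CPM (SD, n = 3 each). *zym1* rose by 1.53 on the log2 scale (SE 0.12, adjusted p = 9.28e-06, edgeR), and 13.99% of all genes tested had a larger size of change.

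*loz1* (SPAC25B8.19c), the gene of the zinc-responsive repressor, showed the largest change of the 8. It lies on the minus strand of chromosome I from 4192070 to 4195213. The thiamine libraries had 12303, 13648 and 19423 counts, or 253, 284 and 360 CPM. The libraries without thiamine had 1632, 1526 and 1542 counts, or 42.5, 39.9 and 44.6 CPM. The groups were far apart, with the lowest thiamine library well above the highest library without thiamine. The log2 fold change was 2.82 (SE 0.14, 95% interval 2.50 to 3.14, adjusted p = 9.39e-07, edgeR), which ranked 92 from the top among 5434 genes. *loz1* thus rose while *zrt1*, the transporter gene it is known to repress, did not pass the test by TMM. Only 88 of its 3144 bp overlap another gene, SPAC25B8.18 on the opposite strand.

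Ratios between the zinc genes within each library do not depend on the scaling. Per kb of transcript, *zym1* was at 5.23, 5.76 and 5.399 times *zhf1* in the thiamine libraries, against 2.32, 2.26 and 2.17 times without thiamine. *zrt1* was at 0.475, 0.416 and 0.384 times *zhf1* with thiamine, against 0.541, 0.606 and 0.524 times without. The groups did not overlap for either ratio. With 3 libraries against 3 the exact two-sided permutation test cannot go below p = 0.1, the value both ratios gave, or 0.133 after adjustment over the 4 ratios compared.

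*ctr4* and *ctr5* encode the subunits of the high-affinity copper transporter of the plasma membrane, each needed for the other to reach the cell surface, and *ctr6* encodes the transporter that releases copper from the vacuole. All of them are known to be activated by Cuf1 through the copper-signalling element (CuSE), whose core is GCTG. In the same search *ctr4* and *ctr5* held 4 CuSE matches each and *ctr6* held 3. *zym1* and *cuf1* held 1 each, and *zrt1*, *zhf1* and *loz1* held none in the windows searched. A CuSE match is frequent, since 64.9% of the 5109 coding genes had at least 1, but 9.004% had 3 or more and 2.19% had 4 or more. The core alone was found in 97.7% of genes. The stretches below were chosen because they hold matches on the gene's own strand, in capitals (RefSeq genome, ASM294v3, plus strand). Other own-strand matches of *ctr4* and *ctr6* are not shown. For *ctr5* the stretch is chrI:3635288-3635317, and for *ctr6* chrII:2100053-2100082. None of the matches shown lies upstream of both annotated transcript starts, and the same holds for the other *ctr5* matches. The 4 *ctr4* matches do lie upstream of both, as do the *ctr6* matches 982 and 931 bases before the start codon.
*ctr5*: gggaATTTTGCTGAgcgaTTATAGCTGGta
*ctr6*: attagtgtacGTGGTGCTGGagtggatcgg

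**Figure D2:**
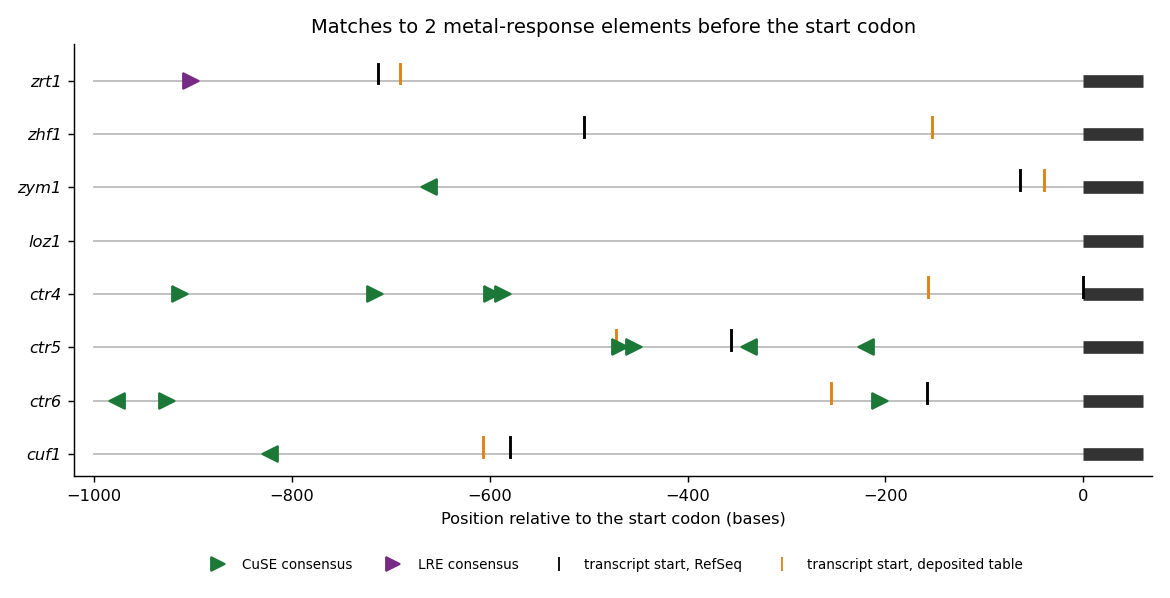
Matches to the CuSE (green) and LRE (purple) consensus in the 1000 bases before the start codon of each gene, with the horizontal axis in bases and triangles pointing right for the gene's own strand and left for the opposite strand. Black and orange bars are the transcript starts of RefSeq and of the deposited table, which lie outside the axis for *loz1*; *ctr4*, *ctr5* and *ctr6* carry 4, 4 and 3 CuSE matches, and *zrt1* carries the only LRE match in these windows.

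*ctr4* (SPCC1393.10, chromosome III, 818459 to 819361, plus strand) had 25.7, 19.6 and 18.2 CPM in the thiamine libraries, against 59.4, 61.5 and 64.8 CPM without thiamine. The groups did not overlap, and thiamine replicate 1 was the highest of its group. The log2 fold change was -1.55 (SE 0.13, adjusted p = 1.22e-05, edgeR).

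*ctr5* (SPAC1142.05, chromosome I, 3635409 to 3636572, plus strand) was at 13.9, 11.7 and 10.99 CPM with thiamine, against 34.4, 29.4 and 35.7 CPM without. It again had its highest thiamine value in replicate 1, with no overlap between the groups. The log2 fold change was -1.45 (SE 0.12, adjusted p = 1.09e-05, edgeR). SPNCRNA.923, on the opposite strand and outside the count table, covers 451 of its 1164 bp.

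*ctr6* (SPBC23G7.16, chromosome II, 2100115 to 2101253, plus strand, 5 exons) had 25.5, 21.6 and 16.3 CPM in the thiamine libraries, against 81.6, 68.3 and 71.4 CPM without thiamine. This was the largest fall of the 8 genes, with a log2 fold change of -1.80 (SE 0.16, 95% interval -2.16 to -1.45, adjusted p = 1.5e-05, edgeR), and it ranked 196 from the bottom of the table. SPNCRNA.5491 on the opposite strand, which was not counted, covers 1068 of its 1139 bp. As for *zhf1*, reads of this pair cannot be told apart, and the same holds for *ctr5* where it is overlapped.

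The ratio of the plasma membrane subunits did not separate the groups. Per kb of transcript, *ctr4* was at 2.24, 2.02 and 2.00 times *ctr5* in the thiamine libraries, against 2.08, 2.52 and 2.19 times without thiamine, and the groups overlapped (exact two-sided permutation p = 0.3). *ctr6* was at 2.63, 2.64 and 2.12 times *ctr5* with thiamine, against 3.40, 3.32 and 2.86 times without. These groups did not overlap (exact p = 0.1, the smallest possible, adjusted 0.133). By these counts, which may take in reads of SPNCRNA.5491, *ctr6* therefore stood lower relative to *ctr5* in each thiamine library.

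*cuf1* (SPAC31A2.11c, chromosome I, 407714 to 409845, minus strand) had 41.3, 42.2 and 44.6 CPM in the thiamine libraries, against 25.5, 24.4 and 26.6 CPM without thiamine. The libraries of each group lay close together, with a coefficient of variation of 3.98% with thiamine and 4.42% without. The log2 fold change was 0.74 (SE 0.08, adjusted p = 4.32e-05, edgeR). The mRNA of the activator was thus higher in the same libraries in which the mRNAs of its 3 known transporter targets were lower. It is a modest change in this table, since 44.5% of genes had a larger one. The non-coding genes SPNCRNA.2160 and SPNCRNA.2161, on the opposite strand and not counted, cover 447 and 128 of its 2132 bp. Reads of the overlapped parts cannot be told apart here either.

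Compared per length, the order of the 8 genes differed between the groups. With thiamine the order was *zym1* at 537 CPM per kb of transcript, *zhf1* at 98.5, *loz1* at 94.6, *zrt1* at 41.5, *ctr6* at 23.6, *ctr4* at 19.98, *cuf1* at 19.8 and *ctr5* at 9.52. The ranges over libraries overlapped for *zhf1* and *loz1*, for *ctr6* and *ctr4*, for *ctr4* and *cuf1*, and for *ctr6* and *cuf1*. Without thiamine *zym1* again led at 185 CPM per kb, followed by *ctr6* at 82.5, *zhf1* at 82.3, *ctr4* at 58.4, *zrt1* at 45.9, *ctr5* at 25.9, *loz1* at 13.4 and *cuf1* at 11.8. There the ranges of *ctr6* and *zhf1* overlapped, and those of no other neighbours in the order. Among 5058 coding genes *loz1* stood at percentile 86.5 with thiamine and 47.2 without.

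**Figure D3:**
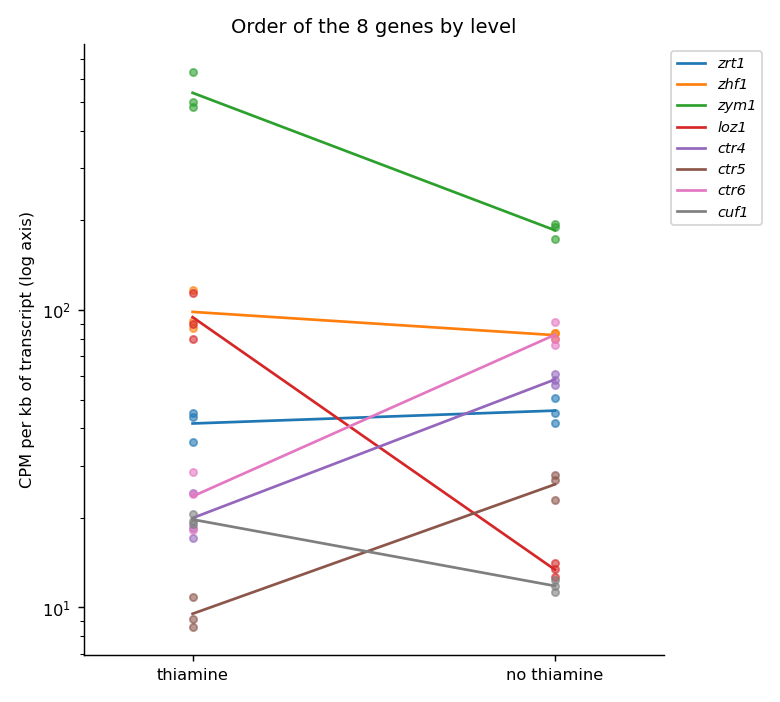
CPM per kb of transcript (log axis) of the 8 genes in the thiamine libraries (left) and the libraries without thiamine (right); points are libraries and lines join the group means. *loz1* stands well above *zrt1* with thiamine and below it without, while *ctr4*, *ctr5* and *ctr6* lie lower with thiamine.

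The list of other zinc genes held transporter genes and the alcohol dehydrogenase genes *adh4* and *adh1*. It also held the near-identical SPBC1348.06c and SPAC977.05c, whose function was not examined. These 8 genes did not move as a group. With thiamine 4 were higher, 2 (*adh4* and *adh1*) lower and 2 not called, where 34.5% of all genes were higher and 35.3% lower. That is 75.0% called against 69.8% of all genes, and the median log2 fold change was 0.18 against -0.01. The 4 higher genes include the near-identical SPBC1348.06c and SPAC977.05c described below, which these counts and the median treat as separate genes. *cis4* and *zrg17*, which encode partner zinc transporters of the secretory pathway, were higher by 0.49 and 0.38 on the log2 scale, but neither passed by upper quartile (0.20 and 0.084). The alcohol dehydrogenase gene *adh4*, a known Loz1 target, averaged 96.2 ± 11.4 CPM with thiamine and 173 ± 13.7 CPM without (log2 fold change -0.85, adjusted p = 0.000138, edgeR), but did not pass by library totals (-0.27). Its window held no LRE match. *adh1*, the gene of a zinc-binding alcohol dehydrogenase, was also lower (-1.71). It had 14.3, 18.6 and 4.76 CPM in the thiamine libraries, against 34.4, 43.9 and 44.6 CPM without. Without thiamine *adh1* averaged 11.8 CPM per kb of transcript, against 92.2 for *adh4*. Another annotated gene overlaps 9.59% of the length of *adh1*, and whether its counts take in the whole *adh1* mRNA was not tested. The near-identical genes SPBC1348.06c and SPAC977.05c had 310 to 609 and 262 to 516 counts with thiamine, against 9 to 18 and 5 to 12 counts without. Their sequences are 99.5% identical over 609 bp, and SPBPB2B2.15 is identical to SPBC1348.06c over 612 bp, so which of the copies the reads came from is uncertain. The ZIP-family transporter genes *zip2* (-0.01) and *zip3* (-0.28) did not pass the test by TMM, and their calls and signs depended on the scaling. *zip2* passed as higher by library totals (0.58, adjusted p = 0.0149) and as lower by upper quartile (-0.31, adjusted p = 0.0223, edgeR). *zip3* turned to 0.31 by library totals without passing, and passed as lower by upper quartile (-0.58, adjusted p = 0.00162) and with thiamine replicate 3 left out (-0.43, adjusted p = 0.00114, edgeR).

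Of 8 tested genes that deliver or use copper, 5 were higher with thiamine, 2 lower and 1 not called, against 34.5% higher and 35.3% lower over all genes. The median log2 fold change was 0.79 against -0.01. The counts and the median take in *mfc1*, whose counts are uncertain, and *cao1*, whose sign depended on the scaling, both described below. *ccc2*, the gene of the ATPase that pumps copper into the secretory pathway, had 118.9, 117.9 and 165 CPM in the thiamine libraries, against 42.2, 38.4 and 44.1 CPM without thiamine (log2 fold change 1.69). *atx1*, the gene of the chaperone that hands copper to Ccc2, rose by 1.12, and *sod1*, the gene of copper-zinc superoxide dismutase, by 0.98 on the log2 scale. *ccs1*, the gene of the Sod1 chaperone, was at 0.16 and did not pass (adjusted p = 0.109, edgeR). In mitochondria the chaperone gene *sco1* was higher (0.59) and *cox17* lower (-0.67), although *cox17* did not pass by library totals (-0.083). The amine oxidase gene *cao1* was lower by TMM (-0.54), but turned to 0.05 under scaling by library totals. *mfc1*, a copper transporter gene of meiosis, was higher (1.54) at 3.13 ± 0.368 CPM with thiamine and 1.08 ± 0.196 CPM without, and 59.1% of its length is overlapped by another counted gene. Stretches of up to 165 bp of *mfc1* also match ribosomal RNA genes at 95.1% to 99.3% identity, so its counts are uncertain.

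The 3 genes of reductive iron uptake were all lower with thiamine, as were 35.3% of all genes tested. Cuf1 is known to repress them when copper is scarce. None of the 3 held a CuSE match in the window searched, and a role of Cuf1 in these values was not tested. *fio1*, the gene of the copper-dependent ferroxidase, had 32.8, 38.3 and 39.9 CPM in the thiamine libraries, against 106, 77.2 and 121 CPM without thiamine (log2 fold change -1.45). *fip1*, the iron permease gene, was at -1.62, and *frp1*, the ferric reductase gene, at -1.87. All of them passed the test, and their levels without thiamine varied more than those of *ctr4*, *ctr5* and *ctr6*.

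Of the genes of glutathione and phytochelatins, peptides that bind excess metal, 1 was higher and 3 were lower, where 34.5% of all genes were higher and 35.3% lower. *gcs1*, the gene of the enzyme that starts glutathione synthesis, averaged 221 ± 14.02 CPM with thiamine and 94.0 ± 2.73 CPM without (log2 fold change 1.23). The phytochelatin synthase gene *pcs* was at -1.04 and the glutathione synthetase gene *gsa1* at -0.63, although *gsa1* did not pass by library totals (-0.063) and 50.6% of it is overlapped by other counted genes. The vacuolar phytochelatin transporter gene *hmt1* was at -0.45, a direction that turned to 0.12 under scaling by library totals. Over the 4 lists, 20 of 23 tested genes were called, 10 higher and 10 lower, or 87.0% called against 69.8% of all genes tested. The lists were chosen with earlier results of these data known, so this share is not a result about such genes. The near-identical SPBC1348.06c and SPAC977.05c are counted there as separate genes.

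**Figure D4:**
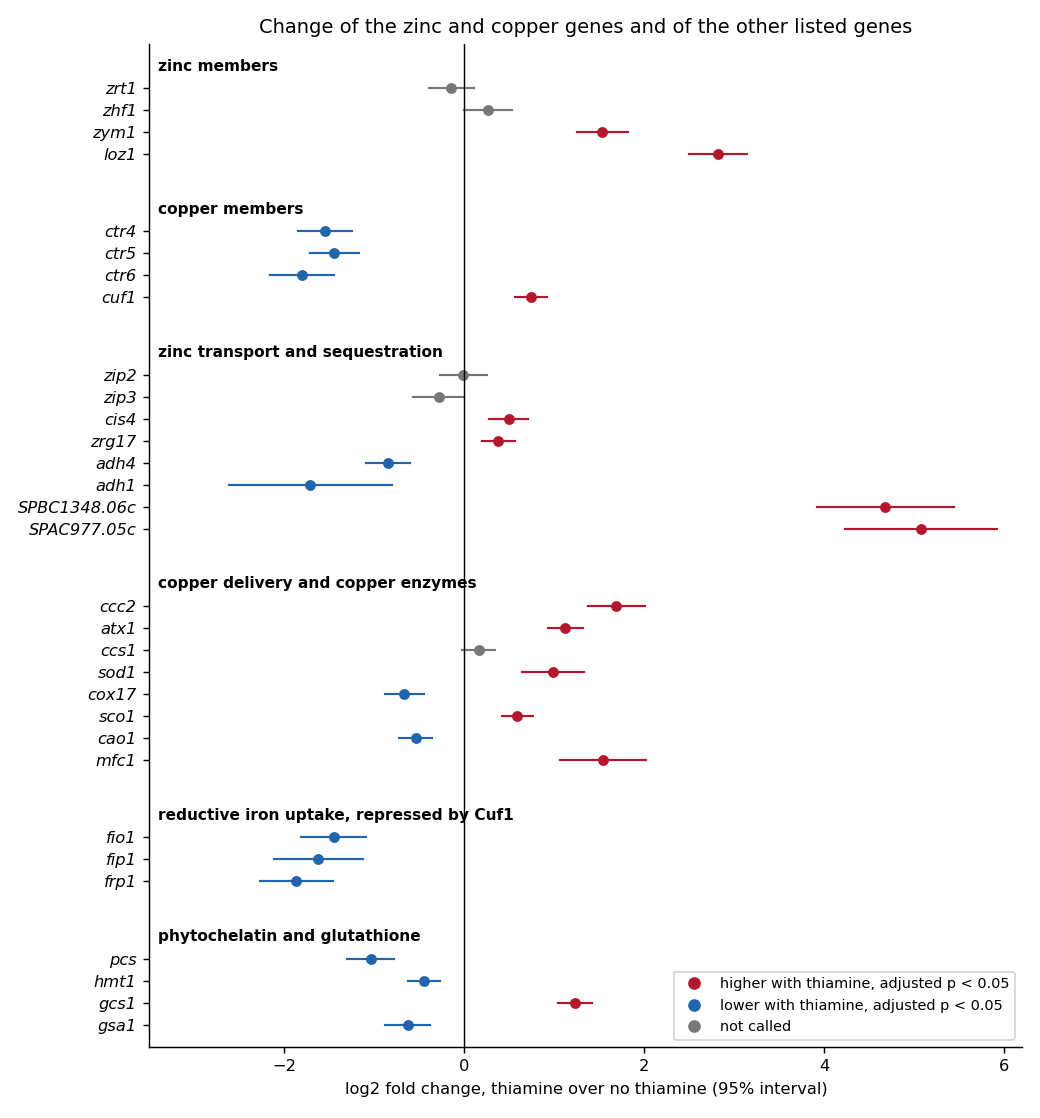
Log2 fold change, thiamine over no thiamine, with its 95% interval, for the 8 genes and the 23 tested genes of the 4 lists; red passed the test as higher, blue as lower, and grey did not pass. The signs of *zrt1*, *zhf1*, *zip2*, *zip3*, *ccs1*, *cao1* and *hmt1* changed under at least 1 other scaling.

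Other genes that share an element match with the members moved in both directions. Of 46 other tested genes with an LRE match, 21 were higher (45.7%) and 16 lower (34.8%) with thiamine. Their median log2 fold change was 0.27. Of 430 other tested genes with 3 or more CuSE matches, 139 were higher (32.3%) and 171 lower (39.8%), with a median of -0.06. For the 102 with 4 or more, 40 were higher (39.2%) and 35 lower (34.3%), with a median of 0.18. Over all genes tested, 34.5% were higher and 35.3% lower, with a median of -0.01. Called genes made up 80.4% of the LRE genes, against 69.8% of all genes tested. The shares called were 72.1% with 3 or more CuSE matches and 73.5% with 4 or more. A role of the elements in these changes was not tested.

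By the distance between centred log2 CPM values over the 6 libraries, the genes most like *ctr4* were *dnt1* (0.165), *efm3* (0.172) and *atp11* (0.220), against a median distance of 2.00 over all genes. *ctr5* ranked 11 at 0.279 and *ctr6* ranked 102 at 0.460. This distance takes in the difference between the groups, so genes with a similar fold change lie close. The log2 fold changes of *dnt1*, *efm3* and *atp11* were -1.61, -1.63 and -1.43, against -1.55 for *ctr4*. For *zrt1* the nearest were *hta1-antisense-1* (0.140), *sac32* (0.145) and *mis14* (0.151), against a median of 1.01.

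Which of these values rest on the scaling can be seen across 14 other settings. *loz1*, *zym1* and *cuf1* were called higher, and *ctr4*, *ctr5* and *ctr6* called lower, in each of them. Their log2 fold changes spanned 2.52 to 3.43 for *loz1*, 1.23 to 2.13 for *zym1*, 0.45 to 1.33 for *cuf1*, -1.84 to -0.99 for *ctr4*, -1.74 to -0.88 for *ctr5* and -2.10 to -1.26 for *ctr6*. Within the thiamine group, replicate 1 had the largest share of ribosomal RNA and the smallest *loz1* and *zym1* and largest *ctr4*, *ctr5* and *ctr6* values, and the part of ribosomal RNA in this was not tested. Leaving that library out gave 2.92 for *loz1* and -1.97 for *ctr6*.

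**Figure D5:**
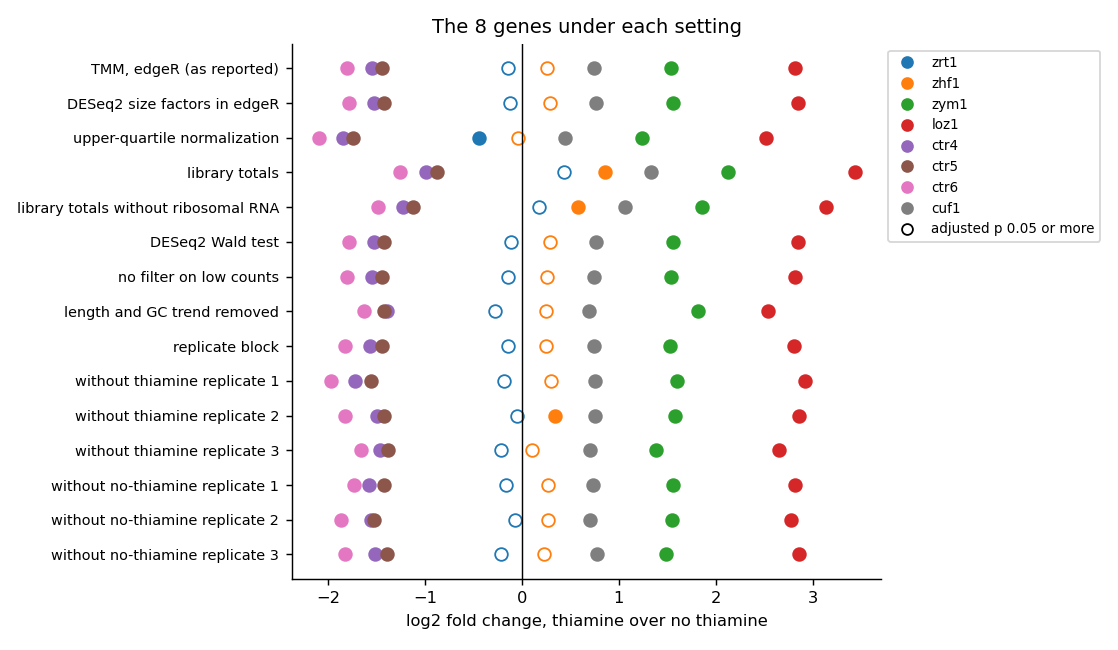
Log2 fold change, thiamine over no thiamine, of the 8 genes under the reported setting and 14 others; filled points passed an adjusted p under 0.05 and open points did not. *zrt1* and *zhf1* move across 0 with the scaling, and the other 6 genes keep their side.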

How the data were processed

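RNA-seq libraries of 3 *nup211-so* cultures with thiamine and 3 without were analysed. RNA was extracted with the RNeasy Kit and libraries were made with the TruSeq Stranded mRNA LT kit. The authors deposited raw counts per gene, each gene with at least 5 counts in total. The submitters' processing notes name STAR and DESeq2 without versions. The genome build, the counting program and its use of strand are not given in the sources used here. The deposited table of the authors' comparison (fold changes, p-values and mean signal) was used for gene names, positions and transcript lengths (the lengths behind CPM per kb), and its test results were not used.

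Differential expression was assessed in R 4.3.3 by edgeR 4.0.16 (quasi-likelihood F test, TMM, robust dispersion, default filter, 5434 genes), with Benjamini-Hochberg adjustment and a threshold of 0.05. Alternatives were other scalings, DESeq2 1.42.0, no filter, removal of length and GC trends (loess, span 0.5), a replicate block and leaving out each library. The code was tested on simulated data with 200 changed genes, as many higher as lower, where edgeR made 9 false calls. The simulation held no broad shift between the groups, so it cannot judge the choice of scaling in these data. It also gave all genes the same dispersion in both groups. The false calls are therefore no error rate for these data, where the thiamine replicates differed more. Positions, overlaps and sequences came from RefSeq ASM294v3, in which 99.984% of 6233 genes overlapped their deposited position. Near-identical copies (95% identity over 100 bp) were sought with blastn 2.17.0, and none of the 8 genes had one. Other steps used Python 3.11.15 with pandas 2.3.3, NumPy 2.4.6 and SciPy 1.17.1.

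The 8 genes and the 4 lists (25 genes, 24 found; *cao2* was too low to test) were chosen with earlier results of these data known. Named genes are the 8, the list members, *nup211*, *ura4*, *nmt1* and the 3 genes most like *zrt1* and *ctr4*. Protein sequences were not used here, and an upstream sequence of *ctr4* is not reported here. No pair of replicates held the same counts, and p-values measure the spread between the labelled biological replicates. Raw counts differed more between thiamine replicates (chi-square per gene 296 to 1061) than between replicates without thiamine (36.4 to 146). That measure takes in ribosomal RNA genes, and the test fitted a shared dispersion to both groups.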

Additional observations from a re-analysis of the deposited data

How the results depend on the processing

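The counts of called genes were stable: 6 or 7 of the 8 genes were called in each of 14 other settings, and 3312 to 3994 genes overall. Scaling shifted the whole table. The median log2 fold change of all genes was -0.01 by TMM, -0.31 by upper quartile, 0.57 by library totals and 0.31 by totals without ribosomal RNA, and the called genes split into 1368 higher and 2583 lower, 2724 higher and 588 lower, and 2534 higher and 1193 lower under these 3 scalings, against 1877 and 1917 by TMM. Small values followed. *zrt1* turned to 0.43 by library totals and 0.18 without ribosomal RNA, and *zhf1* to -0.041 by upper quartile. By library totals *zip2* turned to 0.58, *zip3* to 0.31, *cao1* to 0.048 and *hmt1* to 0.12, and without ribosomal RNA *zip2* to 0.31 and *zip3* to 0.037. *ccs1* turned to -0.14 by upper quartile. *zip2* also turned to 0.014 with DESeq2 size factors, 0.016 in DESeq2, 0.00098 without length and GC trends, and 0.042, 0.059 and 0.028 without thiamine replicate 1, thiamine replicate 2 and no-thiamine replicate 1, and was -0.16 (passing, adjusted p = 0.0307, edgeR) without thiamine replicate 3. Relative to the median of all genes, *zrt1* stayed between -0.22 and -0.03 and *zhf1* between 0.13 and 0.37. Leaving out 1 library gave 6 to 7 called genes of the 8 and 3440 to 3994 overall. Same-numbered replicates did not deviate together (correlations -0.005, 0.086 and -0.028), and with the replicate number as a block 6 of the 8 genes and 3719 in all were called, with *zip3* passing at -0.29 (adjusted p = 0.0351, edgeR). Calls were lost by upper quartile for *cis4* (0.20) and *zrg17* (0.084), by library totals for *adh4* (-0.27), *cox17* (-0.083) and *gsa1* (-0.063), and without ribosomal RNA for *cao1* (-0.22) and *hmt1* (-0.13). *ccs1* passed by library totals (0.75) and without ribosomal RNA (0.48). *zip2* passed by library totals and by upper quartile (-0.31), and *zip3* passed by upper quartile (-0.58) and without thiamine replicate 3 (-0.43). The lowest count of the 8 genes was 563, and the exact permutation test of the ratios cannot go below p = 0.1.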

Other observations

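The ratio of each regulator gene to a known target was chosen after the values were seen and is given with no test. These ratios restate the changes of the single genes given above, and their groups did not overlap. Per kb of transcript, *loz1* was at 1.84, 2.49 and 2.54 times *zrt1* in the thiamine libraries, against 0.298, 0.249 and 0.339 times without thiamine. *cuf1* was at 0.788, 1.06 and 1.202 times *ctr4* in the thiamine libraries, against 0.211, 0.195 and 0.202 times without thiamine.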
